A study of Homo sapiens with 12 samples.

Results

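Cells transfected with MSX1 carrying lysine in place of an arginine (R157K) were compared with cells transfected with wild-type MSX1 (WT). The members are the 6 libraries whose label names one of these plasmids, 3 R157K and 3 WT, of 12 libraries in the series. All 12 were made from HEPM, an established line of human embryonic palatal mesenchyme, taken 6 h after plasmid transfection. The other libraries are 3 with R157S and 3 with R157F, in which serine or phenylalanine stands at the same residue, and they are used below where the lysine plasmid is set against them. Both groups overexpress MSX1, so a change below is between 2 forms of the overexpressed protein and not between overexpression and none. Cells without MSX1 plasmid were not analysed here. The labels name no promoter for the plasmid and no measure of how many cells took it up. Each replicate number is also given in the labels as a batch. Poly(A) RNA was measured as TPM, the abundance of a gene's transcripts as a share of the library, corrected for transcript length.

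MSX1 is a homeodomain transcription factor, mainly a repressor, that acts in the mesenchyme of the early face, teeth and palate, where it works together with BMP signalling. Loss of MSX1 in humans and mice gives cleft palate and missing teeth. Protein arginine methyltransferases add methyl groups to arginine side chains, and PRMT1 makes most of the asymmetric dimethylarginine of mammalian cells. Lysine keeps the positive charge of arginine but is not a substrate for these enzymes, so it is a common replacement in tests of arginine methylation. The series' title ties PRMT1, methylated MSX1, phase separation and the palate together, and the comparison asks what the cells' RNA looks like when the residue is lysine. The stretch of the MSX1 coding sequence around the changed residue is shown because it is the target of the mutation, with the codon of the changed arginine in capitals, from the GENCODE 29 transcript on GRCh38.
MSX1 codons 147 to 167: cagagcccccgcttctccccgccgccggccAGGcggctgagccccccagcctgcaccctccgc
MSX1 lies on the plus strand of chromosome 4 at 4859666 to 4863936 and has 2 exons. The first exon ends at 4860368 and the second begins at 4862701, and that codon is split between them, with 1 base in the first and 2 in the second. The bases of the mutant plasmids were not given in the sources used here.

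TPM add up to the same total in each library, so sequencing depth is unknown and no counting interval can be given. Genes with at least 1 TPM numbered 13541 to 13727 in the R157K libraries and 13864 to 14016 in the WT libraries. Weighted by TPM, the mean GC content of the transcripts was 48.3 ± 1.08% with WT and 51.1 ± 0.436% with R157K (SD, n = 3). With R157S it was 49.9 ± 0.13%. With R157F it was 50.9 ± 0.12%, and those libraries lay within the R157K range of 50.6 to 51.5%. The mean transcript length was 3090 ± 75.4 bases with WT and 2376 ± 88.1 bases with R157K. With R157S it was 2992 ± 8.60 bases and with R157F 2840 ± 30.5 bases, so the R157K libraries, between 2276 and 2440 bases, were the shortest of the 12. WT replicate 2 had the lowest GC content of the 12, at 47.1%, against 48.6% and 49.2% in the other WT libraries. Counts over a gene list that moved by over 1.5 times without that or any other single library are given beside the list. Mesenchyme markers fitted the label: VIM, an intermediate filament gene, had a mean of 7836 TPM with WT and 7222 TPM with R157K. Of the defining genes of other cell types, CDH1 and EPCAM (epithelium), CDH5 and VWF (endothelium), PTPRC (blood cells), SOX10 (glia) and MYOD1 (muscle) did not reach 1 TPM in 3 libraries. Of 16 epithelial markers 8 were tested, 4 rose and 0 fell, and their summed TPM made up 0.00784 ± 0.00204% with WT and 0.0126 ± 0.00149% with R157K. Of the mesenchyme markers 5 of 12 rose and 3 fell. The endothelial, immune, neural and muscle lists had 3, 2, 2 and 3 tested genes, of which 0, 1, 1 and 1 rose. Their summed TPM, in that order, made up 0.00139%, 0.0384%, 0.0157% and 0.00171% with WT. With R157K it made up 0.000593%, 0.0334%, 0.0206% and 0.0038%. The immune and neural shares were thus above the epithelial one, so some of their genes were expressed. With GC and length trends taken out, as described below, 0 were higher and 0 lower of the epithelial genes, 5 were higher and 1 lower of the mesenchyme genes, and, in the order above, 1 was higher and 2 lower, 0 were higher and 0 lower, 0 were higher and 1 lower and 2 were higher and 0 lower of the rest. In the endothelial list, 2 fell without WT replicate 2. In the neural list, 0 rose without WT replicate 1 or 2 or R157K replicate 1 or 3. The part of these genes in the results was not tested, and in bulk RNA fewer cells of a type and less RNA per cell cannot be told apart.

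MSX1 itself was first checked. It stood at 342, 224 and 446 TPM with WT and 563, 333 and 604 TPM with R157K. The groups overlapped, and in each batch the R157K library was the higher. The difference on the log2(TPM + 1) scale was 0.58 ± 0.32, which limma did not call against no change (adjusted p = 0.130). With the replicate number as a block the same difference was called (adjusted p = 0.0396), and relative to the all-gene median it was 0.93 ± 0.30 (limma, adjusted p = 0.0190), but with GC and length trends taken out, as described below, 0.17 (adjusted p = 0.634). The exact two-sided permutation test gave p = 0.3, where 3 libraries against 3 cannot give less than 0.1. Reads of the plasmid and of the cells' own gene are not separated in the table. With R157F the mean was 872 ± 213 TPM and with R157S 451 ± 168 TPM, so the R157K level lay within the range over the plasmids. The part of this level in the results below was not tested.

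The median gene was lower with R157K, by 0.34 on the log2 scale. TPM are shares of a fixed total, so a level against another library and a level against the other genes are different measures. Changes below are therefore relative to that all-gene median unless stated otherwise, in log2 units, with the standard error. A gene is said to have risen or fallen where limma's Benjamini-Hochberg adjusted p was under 0.05 both against no change and relative to the median, in the same direction. Of 14718 genes tested, 2553 rose (17.3%) and 4530 fell (30.8%), together 48.1%. List counts below are to be set beside these shares, and a list near them gives no result about its genes. Against no change alone, 9359 genes were called (63.6%), of which 27.3% were higher with R157K, and relative to the median 61.9% were called, of which 50.3% were higher. In TPM, the 3 R157K libraries lay above all 3 WT libraries for 2344 genes (15.9%) and below them for 6999 genes (47.6%), together 63.5%. Genes named below for the largest changes were picked among these, so their separation is not a further result. List members were picked for a low adjusted p, which favours groups that do not overlap. Where their groups are said below to be apart, that describes the values and is not a further result either.

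The change followed the base composition and length of the transcripts. In the decile of genes with the lowest GC content the median relative change was -0.75, with 19 genes that rose and 992 that fell of 1422. In the decile with the highest GC content it was 1.04, with 912 that rose and 10 that fell. By transcript length the medians ran from 0.55 in the shortest decile to -0.49 in the longest. As a description across 14220 genes, which share their libraries and are not independent, Spearman's rho of the change was 0.72 with GC content and -0.41 with length. GC content also separated libraries of one group: rho was -0.75 for WT replicate 2 minus replicate 3 and 0.62 for R157K replicate 1 minus replicate 2. Gene lists and many single genes are therefore also given after smooth trends on GC content and length were taken out of every library, called here the change after trend removal. In that fit 2839 of 14220 genes were higher (20.0%) and 3212 lower (22.6%). List counts after trend removal are to be set beside these shares. Among genes with these values, 1527 of the 2482 that rose were also higher after trend removal and 41 were lower, and 2156 of the 4470 that fell were also lower and 63 higher. Genes called in both, in the same direction, made up 10.7% higher and 15.2% lower of those with values. The part of RNA quality, library preparation or sequencing in these trends was not tested.

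**Figure D1:**
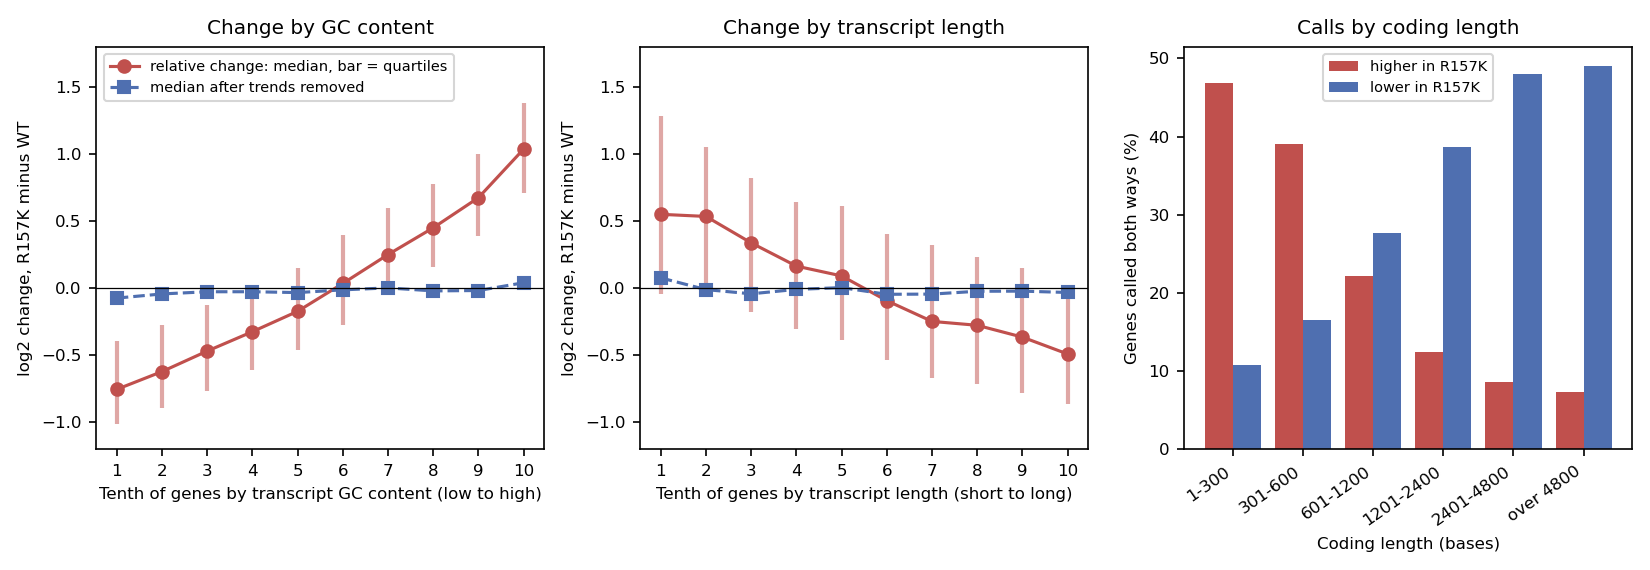
Median log2 change (R157K minus WT) by decile of genes ordered by transcript GC content (left) and transcript length (middle), with bars from the lower to the upper quartile, before (red circles) and after (blue squares) trend removal. The right panel gives the percentage of protein-coding genes that rose or fell by coding length: 46.8% rose in the shortest class and 7.29% in the longest.

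Genes for very short proteins rose most often. Of 297 protein-coding genes with a coding length of up to 300 bases, 46.8% rose and 10.8% fell. In the next class, up to 600 bases, 39.1% of 1408 genes rose and 16.5% fell. Above 4800 bases, 7.29% of 576 genes rose and 49.0% fell. The median relative change of the shortest class was 0.73, and after trend removal, which uses whole transcript length and not coding length, it was 0.50. Set against R157F, where the change hardly followed GC content (rho 0.08) but did follow length (rho -0.48), the same class had a median of 0.58. The coding sequences of 3 such genes are printed to show how short these messages are, with start and stop codons in capitals, from GENCODE 29. RPL41, a ribosomal protein of 78 coding bases with its stop codon, is on chromosome 12.
RPL41: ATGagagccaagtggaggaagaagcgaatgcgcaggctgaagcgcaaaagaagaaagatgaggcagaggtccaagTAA
RPS29, a zinc-binding protein of the small ribosomal subunit with 171 coding bases, is on chromosome 14.
RPS29: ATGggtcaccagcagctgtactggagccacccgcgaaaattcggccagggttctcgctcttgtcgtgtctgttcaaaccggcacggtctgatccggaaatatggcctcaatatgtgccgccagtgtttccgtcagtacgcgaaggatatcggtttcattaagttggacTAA
ROMO1, a small protein of the mitochondrial inner membrane with 240 coding bases, is on chromosome 20.
ROMO1: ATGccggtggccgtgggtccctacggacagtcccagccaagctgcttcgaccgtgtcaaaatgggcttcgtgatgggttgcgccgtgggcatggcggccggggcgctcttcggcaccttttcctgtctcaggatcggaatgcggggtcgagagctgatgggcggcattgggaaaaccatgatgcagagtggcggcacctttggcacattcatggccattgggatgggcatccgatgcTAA
RPL41 had 2227, 1639 and 2546 TPM with WT and 6079, 7468 and 6064 TPM with R157K, a relative change of 1.98 ± 0.15. ROMO1 had 51.2, 40.5 and 62.3 TPM with WT and 281, 343 and 279.5 TPM with R157K, a change of 2.90 ± 0.15 (1.67 after trend removal). For RPL41, chosen after its values were seen, every R157K library was above every WT library, and for ROMO1 the naming rule required this. COPS9, a small subunit of the COP9 signalosome with 171 coding bases before its stop, had 43.9, 53.9 and 78.7 TPM with WT and 287, 349 and 301 TPM with R157K and rose by 2.78 ± 0.18. ATP5ME, a membrane subunit of ATP synthase, C4orf48, for a small secreted peptide, and DPM3, which anchors an enzyme of dolichol sugar synthesis, also have coding sequences under 300 bases. Their changes were 3.11 ± 0.24, 3.64 ± 0.32 and 2.85 ± 0.25, and after trend removal 2.39, 1.86 and 1.61. MTLN, which encodes a mitochondrial microprotein, had 16.1, 3.84 and 17.4 TPM with WT and 62.8, 83.4 and 72.1 TPM with R157K and the largest change after trend removal among the genes named by the rule, 2.89.

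Ribosomal protein genes moved together. The small subunit list holds 32 genes, of which 29 rose and 0 fell, with a median of 1.59. The large subunit list holds 47, of which 39 rose and 0 fell, with a median of 1.40. After trend removal 31 and 40 were higher and 0 and 0 lower, with medians of 1.11 and 0.96. The range within the ribosome was wide. RPS29 rose from 715, 468 and 949 TPM with WT to 4866, 5741 and 4338 TPM with R157K, a change of 3.21 ± 0.22. RPS21 had 298, 273 and 403 TPM with WT and 1856, 2305 and 1988 TPM with R157K and changed by 3.02 ± 0.18, and RPL39, at the exit tunnel of the large subunit, had 1116, 633 and 1163 TPM with WT and 3853, 4721 and 3962 TPM with R157K and changed by 2.50 ± 0.20. These 3 genes were named for the largest changes, a rule that required the groups not to overlap, so their separation is not a separate result. At the other end, RPS6, the substrate of S6 kinase, changed by 0.10 ± 0.10, RPL4 by 0.04 ± 0.10 and RPL32 by -0.46 ± 0.20, none of them called. RPS6 was called higher after trend removal, at 0.19. The 32 genes of the small subunit took 2.22 ± 0.374% of all TPM with WT and 5.95 ± 0.645% with R157K (SD, n = 3). With R157F they took 3.41 ± 0.122%. Many of these genes have processed pseudogenes that can share reads, so the split of reads between a gene and its copies is uncertain. In the large subunit list, 1 fell without WT replicate 2 and 2 fell without R157K replicate 2.

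Ribosomal protein messages are known for starting with an unbroken run of C and T bases, through which their translation is held back when growth signals are low. The bases from 20 before to 19 after an annotated start are shown, from RefSeq on GRCh38.p14, with the run in capitals. They are given for 3 members with a long run and for RPS29, which had the largest change in the ribosome. At the 1 RPS29 start read here no such run was found. For each gene the first listed start alone was read, so a run at another start would be missed.
RPS21, chr20:62387083-62387122, plus strand: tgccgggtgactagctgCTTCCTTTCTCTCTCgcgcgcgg
RPLP2, chr11:809947-809986, plus strand: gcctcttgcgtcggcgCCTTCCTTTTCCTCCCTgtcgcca
RPL39, chrX:119791611-119791650, minus strand: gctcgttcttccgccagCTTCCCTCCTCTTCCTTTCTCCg
RPS29, chr14:49598691-49598730, minus strand: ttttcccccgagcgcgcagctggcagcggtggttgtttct
A run of at least 8 such bases reaching within 5 bases of the start, read on the gene's strand, was found in 20 of 25 small subunit promoters in the table and in 28 of 38 large subunit promoters. It was found in 11.3% of all 27305 promoters. Of 32 promoters of complex I subunits, which also rose, 1 had it, and of 40 promoters of translation factors, 9 had it. Of 14 promoters of small nucleolar RNA host genes, 5 had it.

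Initiation, elongation and termination factors did not follow the ribosome. Of 48 tested, 9 rose and 26 fell, with a median of -0.33, beside 17.3% and 30.8% over all genes. After trend removal 13 were higher and 18 lower. EIF3H, a subunit of the initiation factor eIF3, stood at 249.9, 255 and 228 TPM with WT and 74.6, 83.7 and 74.1 TPM with R157K, a change of -1.29 ± 0.11 (-0.65 after trend removal). EIF4G2, which drives cap-independent initiation, changed by -1.03 ± 0.09 and -1.08. In contrast EIF3K, the smallest eIF3 subunit, rose from 127, 83.4 and 148 TPM with WT to 251, 297 and 266 TPM with R157K, by 1.56 ± 0.17 and 0.82. Subunits of the same complex thus lay on both sides, and the groups did not overlap for EIF3H or EIF3K. Among 34 factors of ribosome assembly 7 rose and 14 fell. Host genes of small nucleolar RNAs, which guide the chemical modification of ribosomal RNA, included 11 that rose and 2 that fell of 16, with a median of 0.93. SNHG8 had 39.2, 37.7 and 32.9 TPM with WT and 139, 176 and 114 TPM with R157K and changed by 2.27 ± 0.16. Mitochondrial ribosomal proteins rose for 29 and fell for 4 of 51, with a median of 0.89 before and 0.41 after trend removal. After trend removal, 8 were higher and 9 lower of the assembly factors, 9 were higher and 1 lower of the host genes and 29 were higher and 7 lower of the mitochondrial ribosomal proteins. Without WT replicate 2 as well, 5 assembly factors were lower. In the mitochondrial ribosome list, 1 fell without R157K replicate 3 and 2 fell without R157K replicate 1.

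**Figure D2:**
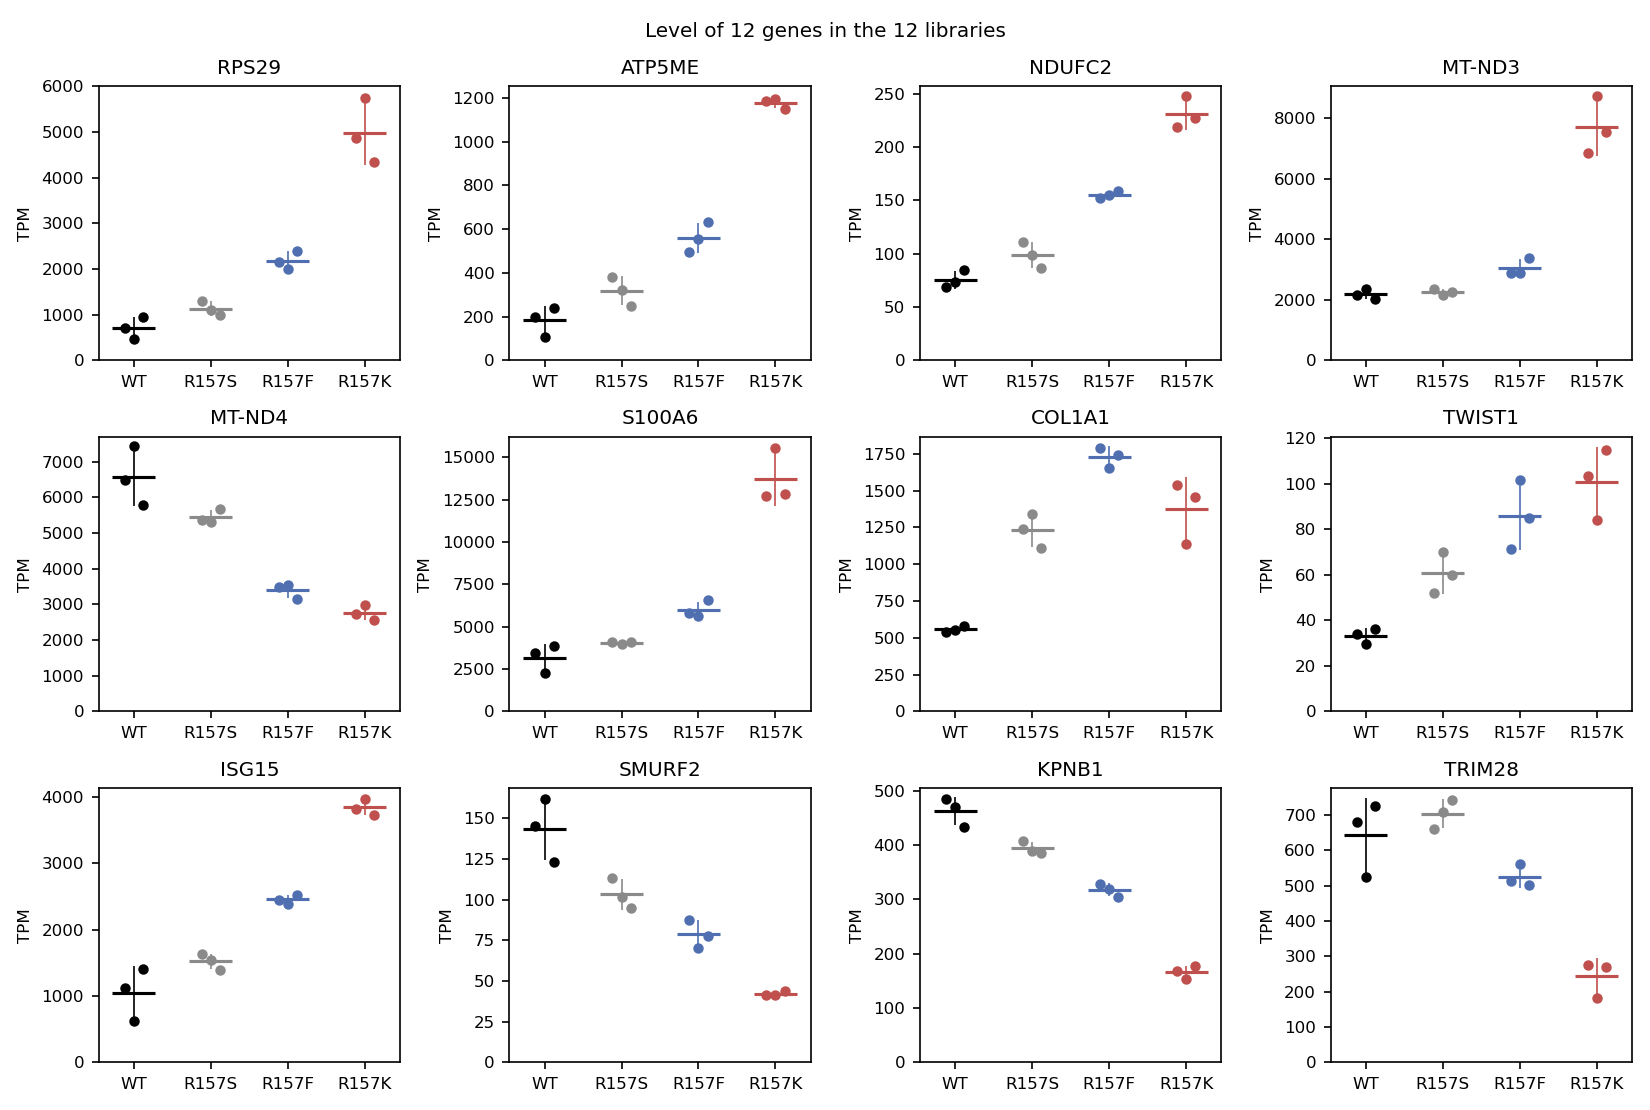
TPM of 12 genes in every library, grouped by plasmid, with the mean (horizontal line) and SD (vertical line) of 3 libraries. RPS29, ATP5ME, NDUFC2, MT-ND3, S100A6 and ISG15 are above every other library in R157K, and SMURF2, KPNB1 and TRIM28 below every other library.

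Respiratory chain genes of the nucleus rose like the ribosome. Complex I, which takes electrons from NADH, had 29 subunits that rose and 2 that fell of 38, with a median of 1.54 and 0.77 after trend removal. Complexes II to V had 25 that rose and 3 that fell of 41, with medians of 1.08 and 0.87. After trend removal, 30 were higher and 1 lower in complex I and 30 were higher and 4 lower in complexes II to V. NDUFC2, a membrane arm subunit, had 68.6, 73.5 and 85.0 TPM with WT and 219, 248 and 227 TPM with R157K and changed by 1.95 ± 0.12 (limma, adjusted p = 9.09e-07). ATP5ME had 200.2, 108 and 239 TPM with WT and 1186, 1193 and 1149.9 TPM with R157K, and COX5B, of cytochrome c oxidase, had 48.0, 33.8 and 52.5 TPM with WT and 158, 197 and 149.8 TPM with R157K, with changes of 3.11 ± 0.24 and 2.25 ± 0.16. All 3 were separated between the groups by more than the spread of either, and for ATP5ME the naming rule required no overlap. Some subunits fell. NDUFS1, the largest subunit of complex I, fell from 111, 120.2 and 108 TPM with WT to 49.9, 52.1 and 47.6 TPM with R157K, a change of -0.82 ± 0.09 and, after trend removal, -0.21. ATP5PB, of the ATP synthase stalk, had 283, 312 and 275 TPM with WT and 71.3, 88.1 and 65.4 TPM with R157K and changed by -1.59 ± 0.15, and CYCS, the electron carrier cytochrome c, had 119.9, 169 and 107 TPM with WT and 33.5, 52.9 and 35.1 TPM with R157K and changed by -1.33 ± 0.20. For CYCS and ATP5PB the R157K libraries lay below the WT libraries in every case.

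The 13 protein-coding genes of mitochondrial DNA did not move with the nuclear subunits. Of them 1 rose and 5 fell (3 and 5 without WT replicate 2), and after trend removal 2 were higher and 9 lower. Their share of all TPM was 7.41 ± 1.79% with WT and 6.31 ± 0.501% with R157K, and the groups overlapped. MT-ND3, a small complex I subunit, rose from 2178, 2356 and 2022 TPM with WT to 6843, 8738 and 7547 TPM with R157K, a change of 2.17 ± 0.12 (limma, adjusted p = 9.09e-07). MT-ND4 and MT-ND5, larger subunits of the same complex, fell from 6494, 7450.5 and 5793 TPM with WT to 2742, 2971 and 2559.8 TPM with R157K and from 3016, 3194 and 2307 TPM with WT to 1071, 1272 and 1064 TPM with R157K. Their changes were -0.90 ± 0.11 and -0.96 ± 0.13. These RNAs are cut from common precursors, and MT-ND3 and MT-ND4 lie next to each other on the same strand apart from a transfer RNA and MT-ND4L. The mean of MT-ND4 over that of MT-ND3 was 3.01 with WT, 2.41 with R157S, 1.11 with R157F and 0.358 with R157K. TPM are corrected for transcript length, but across genes the change in TPM still followed length. The part of length in this ratio was not tested. MT-CO1, of cytochrome c oxidase, changed by -0.82 ± 0.11.

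Small cytoskeletal and calcium-binding proteins formed another group that rose. Of 20 S100 proteins, thymosins, galectins and relatives tested, 17 rose and 1 fell, with a median of 1.29 (0.71 after trend removal). S100A6, a calcium sensor of proliferating mesenchyme, had 3425, 2243 and 3851 TPM with WT and 12733, 15536 and 12848 TPM with R157K and changed by 2.49 ± 0.17. TMSB10, which binds actin monomers, had 3811, 2169.6 and 4824 TPM with WT and 14859, 16608 and 13921 TPM with R157K, and LGALS1, a secreted lectin, had 2199, 1477 and 2642 TPM with WT and 6533, 7339 and 6177 TPM with R157K, with changes of 2.49 ± 0.22 and 2.05 ± 0.17. Each of the 3 was higher in every R157K library than in any WT library, which their pick by low adjusted p favours. Together the list took 1.83 ± 0.401% of all TPM with WT and 5.40 ± 0.528% with R157K. Actin and contractile genes were mixed, with 9 that rose and 8 that fell of 41. MYL6, a myosin light chain, rose by 1.53 ± 0.12, while ROCK1 and ROCK2, the kinases that activate myosin, fell by 1.01 and 0.98. After trend removal, 14 were higher and 1 lower of the S100 list and 14 were higher and 13 lower of the actin list. In the S100 list, 2 fell without R157K replicate 2. In the actin list, 14 rose without WT replicate 3.

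Among nuclear proteins, histone and snRNP genes rose more often than they fell. Replication-dependent and linker histone genes gave 12 that rose and 0 that fell of 22 tested, with a median of 1.00 (0.65 after trend removal). H2BC12, a core histone H2B gene, had 47.3, 34.8 and 67.3 TPM with WT and 154, 135 and 146 TPM with R157K and changed by 1.92 ± 0.18. Most messages of this class have no poly(A) tail, so a poly(A) library sees a part of them, and close copies share reads. Core proteins of the spliceosomal snRNPs gave 16 that rose and 2 that fell of 30. SNRPD2, of the Sm ring, had 211, 126 and 220.2 TPM with WT and 661, 792 and 620.5 TPM with R157K (change 2.28 ± 0.18), but SNRPD1, another protein of that ring, had 50.7, 78.5 and 41.0 TPM with WT and 17.9, 25.4 and 19.2 TPM with R157K (change -1.02 ± 0.22). Neither gene's groups overlapped. Splicing regulators outside the snRNPs gave 4 that rose and 16 that fell of 45, and after trend removal 14 higher and 6 lower, so their direction depended on that step. RNA polymerase II and its general factors changed in both directions. POLR2I and POLR2J, small subunits, changed by 2.08 ± 0.19 and 1.96 ± 0.23, and POLR2B, the second largest, by -0.84 ± 0.12. Of 36 genes in that list 7 rose and 17 fell. After trend removal, 10 were higher and 0 lower of the histones, 16 were higher and 4 lower of the snRNP proteins and 12 were higher and 12 lower of the polymerase list. Without WT replicate 2 as well, the median of the histones was 0.39. In the snRNP list, 1 fell without WT replicate 2 or R157K replicate 1 or 3.

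TAF10 and TRIM28 fell although their transcripts are GC-rich, at 64.1% and 63.7%. TAF10, a subunit of TFIID and SAGA, had 55.9, 58.5 and 46.3 TPM with WT and 21.4, 25.7 and 17.9 TPM with R157K. Its relative change was -0.92 ± 0.24, and after trend removal -2.21. TRIM28, the corepressor through which KRAB zinc finger proteins silence repeats, had 679, 524 and 726 TPM with WT and 277, 183 and 271 TPM with R157K, with changes of -1.05 ± 0.14 and -1.90. Both were named for the largest falls after trend removal, and the rule required every R157K library to be under every WT library. Taking out a trend that rises with GC content makes a fall in a GC-rich gene larger. The larger value after trend removal is therefore not a separate result. With R157F, TRIM28 had 512, 563 and 502 TPM, and the direct difference between R157K and R157F was -0.86 ± 0.14 (limma, adjusted p = 0.00306). The zinc finger repressor list, which includes TRIM28, had 1 that rose and 26 that fell of 45. Its median of -0.48 moved to 0.03 after trend removal, with 10 higher and 7 lower. Without WT replicate 2 as well, 5 were higher and 6 lower. In the zinc finger list, 3 rose without R157K replicate 2. Those genes have a median GC content of 40.8%. MARK4, a microtubule affinity kinase, and ZDHHC8, a palmitoyltransferase, are also GC-rich genes that fell and were named by the same rule as TAF10 and TRIM28. Their changes were -1.22 ± 0.19 and -1.10 ± 0.19 before and -1.95 and -1.94 after trend removal. With R157F their means were 41.3 and 37.8 TPM, against 49.0 and 41.3 TPM with WT and 16.2 and 14.8 TPM with R157K.

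Chromatin regulators fell more often than they rose, as did all genes tested, of which 17.3% rose and 30.8% fell. Of 56 tested, 2 rose and 31 fell, and after trend removal 3 were higher and 19 lower, beside 20.0% and 22.6% over all genes. KDM6A, a demethylase of the Polycomb mark, had 64.4, 72.9 and 56.9 TPM with WT and 26.7, 23.1 and 29.1 TPM with R157K and changed by -0.91 ± 0.10. CHD3, a remodeller of the NuRD complex, rose from 56.0, 38.0 and 59.5 TPM with WT to 82.6, 96.7 and 94.0 TPM with R157K, by 1.19 ± 0.15 and, after trend removal, 0.97. SUZ12 and EZH2, core subunits of Polycomb repressive complex 2, fell by 1.17 and 0.52. Both are in the list of MSX1 relatives and partners, in which 1 of 16 genes rose and 5 fell. The gene that rose there was DLX2, a homeobox gene of the same branch, by 0.92 ± 0.15. Mediator and coactivator genes gave 7 that rose and 16 that fell of 40, histone variants 3 and 1 of 8, and long noncoding RNAs of the nucleus 0 and 2 of 7. After trend removal, 2 were higher and 5 lower of the MSX1 relatives, 8 were higher and 12 lower of the Mediator list, 4 were higher and 1 lower of the histone variants and 5 were higher and 0 lower of the long noncoding RNAs, so the direction of the last list turned. In the chromatin list, 6 rose without R157K replicate 2. In the Mediator list, 4 rose without WT replicate 1. In the list of MSX1 relatives, 2 rose without WT replicate 3. In the long noncoding RNA list, 0 fell without WT replicate 2 or R157K replicate 1, 1 fell without R157K replicate 3 and 4 fell without WT replicate 3. Without WT replicate 2 after trend removal, 1 of the MSX1 relatives was higher. EP300, the acetyltransferase, had 61.0, 60.4 and 60.6 TPM with WT and 26.5, 20.6 and 26.2 TPM with R157K and changed by -0.93 ± 0.09.

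Nuclear transport genes fell as a group. Of 38 nucleoporins, importins, exportins and Ran genes, 0 rose and 32 fell, with a median of -0.69, and after trend removal 3 were higher and 24 lower. KPNB1, importin beta, had 484, 469 and 434 TPM with WT and 168, 153 and 176 TPM with R157K and changed by -1.12 ± 0.07 (-0.69 after trend removal). RAN, the small GTPase that gives transport its direction, had 849, 912 and 826 TPM with WT and 305, 309.9 and 279.7 TPM with R157K and changed by -1.18 ± 0.10 (-0.78). Both were lower in every R157K library. The list took 0.421 ± 0.0370% of all TPM with WT and 0.184 ± 0.00349% with R157K. DNA repair genes gave 1 that rose and 25 that fell of 38, with a median of -0.61. RIF1, which steers the choice of repair pathway, changed by -1.34 ± 0.18, and LIG1, the replicative ligase and the one that rose, by 0.85 ± 0.17. LIG1 was not called without WT replicate 2, R157K replicate 1 or R157K replicate 3. Replication genes gave 3 that rose and 22 that fell of 43. In the mitotic list, 4 rose, among them UBE2C, CKS2 and SPC24, for short proteins, and 33 of 48 fell. D cyclins and CDK inhibitors gave 4 and 5 of 18, near the 17.3% and 30.8% over all genes. After trend removal, 3 were higher and 15 lower of the repair genes (1 and 11 without WT replicate 2), 1 was higher and 17 lower of the replication genes, 5 were higher and 24 lower of the mitotic genes and 5 were higher and 5 lower of the cyclin list. In the nuclear transport list, 1 rose without WT replicate 3 or R157K replicate 2. In the repair list, 0 rose without WT replicate 2 or R157K replicate 1 or 3. In the replication list, 1 rose without WT replicate 2 or R157K replicate 1 or 3.

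**Figure D3:**
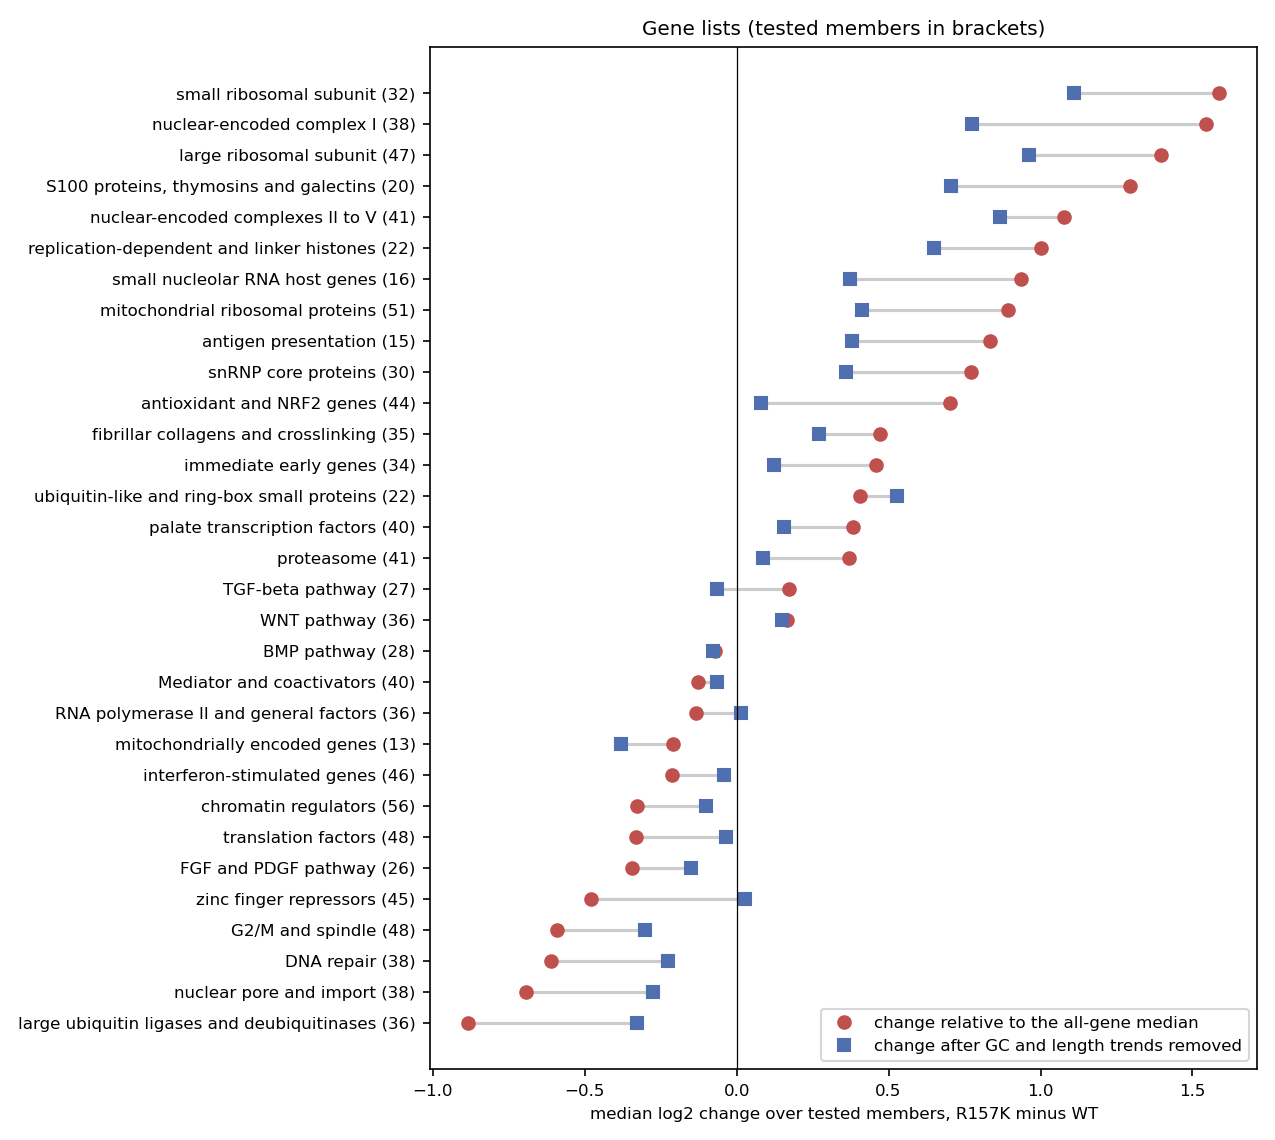
Median log2 change (R157K minus WT) over the tested members of 31 gene lists, relative to the all-gene median (red circles) and after trend removal (blue squares), joined by grey lines. The small and large ribosomal subunit lists and the nuclear respiratory chain lists have the highest medians after trend removal, 0.77 to 1.11. The mitochondrial ribosomal list is at 0.41, and the zinc finger list moves from -0.48 to 0.03. Trend removal does not use coding length.

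In the ubiquitin system ligases fell and several small conjugated proteins rose. Large ubiquitin ligases, cullins and deubiquitinases gave 0 that rose and 31 that fell of 36, with a median of -0.88 (-0.33 after trend removal, with 0 higher and 29 lower). SMURF2, a ligase that targets SMAD proteins and TGF-beta receptors, had 145, 162 and 123 TPM with WT and 41.4, 41.2 and 43.7 TPM with R157K and changed by -1.38 ± 0.12 (-1.04). UBE3A, a HECT ligase, had 71.6, 85.2 and 65.9 TPM with WT and 20.5, 23.0 and 20.9 TPM with R157K, and USP47, a deubiquitinase, had 62.2, 66.3 and 48.7 TPM with WT and 16.6, 18.8 and 20.5 TPM with R157K. The groups were apart for all 3. The median transcript of this list is 6110 bases long. The small proteins that are conjugated or that dock ligases gave 8 that rose and 5 that fell of 22, and 14 higher and 3 lower after trend removal. UBL5, a ubiquitin-like splicing modifier, had 183, 122 and 201 TPM with WT and 683, 788 and 719 TPM with R157K and changed by 2.49 ± 0.15. ELOB, the elongin adaptor of cullin ligases, had 56.4, 37.1 and 73.1 TPM with WT and 217, 237 and 182 TPM with R157K and changed by 2.31 ± 0.20. Both were higher in every R157K library. Those that fell include the autophagy genes ATG12 (-1.01 ± 0.16) and MAP1LC3B (-0.44 ± 0.11). The proteasome gave 17 that rose and 10 that fell of 41. PSMB10, a catalytic subunit of the immunoproteasome, changed by 2.03 ± 0.19, and PSMD12, of the regulatory lid, by -1.14 ± 0.15. After trend removal, 18 were higher and 8 lower in the proteasome. In the list of small proteins, 3 fell without R157K replicate 1 or 3.

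PRMT1, the methyltransferase of the series' title, had 119, 75.7 and 125 TPM with WT and 205, 179 and 192 TPM with R157K a difference of 0.88 ± 0.15 against no change (limma, adjusted p = 2.89e-04) and a relative change of 1.23 ± 0.15 (adjusted p = 3.70e-05). The exact two-sided permutation test gave p = 0.1, the smallest that 3 against 3 allows, and after trend removal the change was 0.33. Of 10 arginine methyltransferases and cofactors tested, PRMT1 was the 1 that rose, and 4 fell, PRMT9, PRMT3 and NDUFAF7 among them, by 0.78, 0.68 and 0.53. After trend removal these 3 changes were -0.21, -0.22 and -0.18 and not called. In the whole list, 2 were higher and 3 lower, where over all genes 20.0% were higher and 22.6% lower. In that list, 3 rose without WT replicate 3. Set directly against R157F, 0 of its 10 genes were higher and 0 lower both ways, beside 3.30% and 3.86% over all genes. Against R157S, 1 was higher and 2 lower, beside 7.90% and 16.6%.

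Transcription factors of the palate mesenchyme changed in both directions. Of 40 tested, 11 rose and 8 fell, beside 17.3% and 30.8% over all genes, with a median of 0.38 and, after trend removal, 0.15. TWIST1, a basic helix-loop-helix factor of head mesenchyme, had 34.0, 29.7 and 36.2 TPM with WT and 103, 84.2 and 115 TPM with R157K and changed by 1.92 ± 0.15 (1.24 after trend removal). TWIST2, its close relative, changed by 1.65 ± 0.16 (0.89), and FOXD1, a forkhead factor, by 1.82 ± 0.17 (0.78). PRRX1, a homeobox gene that marks limb and craniofacial mesenchyme, had 878, 941 and 803 TPM with WT and 305, 334 and 342 TPM with R157K and changed by -1.06 ± 0.10 (-0.44). PRRX1 was lower and TWIST1 higher in every R157K library. ZEB1, a zinc finger repressor of epithelial genes, had 100.4, 114 and 86.0 TPM with WT and 31.7, 37.8 and 39.5 TPM with R157K and changed by -1.08 ± 0.12 (-0.39), and PBX3, a TALE homeodomain partner of HOX proteins, changed by -0.96 ± 0.12. The paralogue PRRX2, picked after its values were seen, changed by 2.30 ± 0.28 (0.81), so the 2 PRRX genes were called in opposite directions. Genes in which variants are linked to cleft lip or palate gave 3 that rose and 13 that fell of 29. EFNB1, an ephrin of the facial midline, rose by 1.03 ± 0.17. After trend removal, 12 were higher and 6 lower of the palate factors and 6 were higher and 7 lower of the cleft genes.

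BMP pathway genes changed in both directions. Of 28 genes, 7 rose and 11 fell, with a median of -0.07. The target ID3, an inhibitor of helix-loop-helix factors, had 35.5, 22.4 and 36.9 TPM with WT and 67.2, 59.5 and 69.3 TPM with R157K and changed by 1.41 ± 0.16 (0.57 after trend removal). NOG, the extracellular antagonist noggin, had 5.85, 5.06 and 6.60 TPM with WT and 12.1, 11.7 and 10.8 TPM with R157K and changed by 1.23 ± 0.14, and the ligand GDF5 changed by 1.47 ± 0.17. SMAD4, the shared effector of BMP and TGF-beta signals, had 92.8, 82.0 and 87.0 TPM with WT and 29.1, 28.9 and 28.2 TPM with R157K and changed by -1.22 ± 0.10 (-0.57), and SMAD5, a BMP-activated SMAD, had 60.1, 67.5 and 62.1 TPM with WT and 14.3, 17.9 and 16.0 TPM with R157K and changed by -1.56 ± 0.13 (-0.77). Of these 4 genes with values in each library, ID3 and NOG were above and the SMAD genes below WT in every R157K library. The transcripts of SMAD4 and SMAD5 have a GC content of 41.1% and 36.9%, those of ID3 and NOG 57.2% and 59.5%. TGF-beta pathway genes gave 2 that rose and 10 that fell of 27. LTBP3 and LTBP4, which store latent TGF-beta in the matrix, rose by 0.99 ± 0.18 and 1.15 ± 0.18, LTBP3 not without R157K replicate 1 or 3, and the receptor TGFBR2 fell by 0.73. After trend removal, 8 were higher and 6 lower of the BMP genes and 3 were higher and 6 lower of the TGF-beta genes. The balance of the BMP genes thus turned, in a step that also took the lower share over all genes from 30.8% to 22.6%. In the TGF-beta list, 1 rose without R157K replicate 1 or 3 and 5 rose without R157K replicate 2.

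WNT pathway genes gave 7 that rose and 8 that fell of 36, where over all genes 17.3% rose and 30.8% fell. FZD7, a receptor, had 45.4, 44.6 and 47.4 TPM with WT and 69.6, 52.7 and 68.5 TPM with R157K and changed by 0.81 ± 0.09 (0.75 after trend removal), and the secreted inhibitor DKK1 had 299, 265 and 255 TPM with WT and 95.5, 104 and 106 TPM with R157K and changed by -1.06 ± 0.10 (-0.86). FZD7 was above and DKK1 below WT in every R157K library. FGF and PDGF genes gave 1 that rose and 16 that fell of 26. Notch pathway genes gave 5 and 6 of 18, with the ligand DLL1 higher by 1.06 ± 0.17 and the receptor NOTCH2 lower by 0.83. Hedgehog genes gave 2 and 1 of 12, and GAS1, a coreceptor, rose by 0.82 ± 0.13. In the insulin-like growth factor list 5 of 17 rose and 3 fell. IGFBP6 and IGFBP4, secreted binding proteins, changed by 2.24 ± 0.22 and 1.02 ± 0.12, and PAPPA, a protease that cleaves IGFBP4, by -0.51 ± 0.10. After trend removal, 8 were higher and 8 lower of the WNT genes, and 4 and 7 of the FGF and PDGF genes. Of the Notch genes 4 were higher and 3 lower, of the hedgehog genes 2 and 0, and of the insulin-like growth factor list 6 and 3. The balance of the Notch genes thus turned, in a step that also took the lower share over all genes from 30.8% to 22.6%. In the WNT list, 3 rose without WT replicate 2 or R157K replicate 1 or 3. In the FGF and PDGF list, 2 rose without WT replicate 2 or 3 and 3 rose without R157K replicate 2. In the Notch list, 3 rose without R157K replicate 3. In the hedgehog list, 0 fell without WT replicate 1 or 2 or R157K replicate 1 or 2. In the insulin-like growth factor list, 3 rose without R157K replicate 1.

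Collagen and crosslinking genes rose more often than they fell. Of 35 genes, 14 rose and 8 fell, with a median of 0.47 (0.27 after trend removal). COL1A1, a chain of type I collagen, had 540.0, 553 and 582 TPM with WT and 1536, 1136 and 1459 TPM with R157K and changed by 1.64 ± 0.10 (1.08). COL3A1 changed by 1.17 ± 0.11 (1.20) and COL5A1 by 1.60 ± 0.15 (1.10). SPARC, a collagen-binding glycoprotein, had 2673, 2817 and 2737 TPM with WT and 1242, 1111 and 1073 TPM with R157K and changed by -0.91 ± 0.11 (-0.65), and PLOD2, which hydroxylates lysines for crosslinks, had 318, 429.7 and 262 TPM with WT and 98.4, 122 and 104 TPM with R157K and changed by -1.25 ± 0.19 (-0.54). No library of COL1A1, SPARC or PLOD2 crossed into the other group. The COL1A1 mean of 1377 TPM with R157K lay between 1230 ± 113 TPM with R157S and 1729 ± 71.6 TPM with R157F. Basement membrane and integrin genes gave 5 that rose and 14 that fell of 35. The integrins ITGA1, ITGA2 and ITGA6 fell by 1.15, 1.12 and 1.20. MMP3, a secreted metalloproteinase, had 32.1, 25.4 and 27.0 TPM with WT and 3.94, 2.90 and 4.87 TPM with R157K and changed by -2.23 ± 0.26 (-2.03), and MMP1 changed by -0.84 ± 0.08. Metalloproteinases and their inhibitors gave 3 that rose and 7 that fell of 22, elastic fibre and proteoglycan genes 7 and 5 of 25, and bone and cartilage genes 0 and 3 of 9. Elastin, ELN, rose by 1.72 ± 0.15 and the proteoglycan VCAN fell by 0.91. After trend removal, 18 were higher and 4 lower of the collagen list, 5 were higher and 14 lower of the basement membrane list, 2 were higher and 7 lower of the metalloproteinase list, 9 were higher and 8 lower of the elastic fibre list and 0 were higher and 0 lower of the bone list. In the collagen list, 5 fell without R157K replicate 3. In the basement membrane list, 3 rose without R157K replicate 1 or 3. In the metalloproteinase list, 5 rose without WT replicate 3. In the bone list, 1 fell without WT replicate 2 or R157K replicate 1 or 3.

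Interferon-stimulated genes changed in both directions. Of 46 tested, 12 rose and 23 fell, beside 17.3% and 30.8% over all genes, with a median of -0.21. ISG15, the ubiquitin-like modifier, had 1124, 617 and 1404 TPM with WT and 3822, 3965 and 3733 TPM with R157K and changed by 2.30 ± 0.22 (0.88 after trend removal). IFI27 and IFI6, small proteins of mitochondrial and other membranes, changed by 2.23 ± 0.20 and 1.66 ± 0.12. IFIT5, an RNA-binding effector, had 154, 169 and 144 TPM with WT and 55.7, 65.3 and 63.0 TPM with R157K and changed by -0.98 ± 0.11 (-0.24), and DTX3L, a ligase, had 222, 243 and 211 TPM with WT and 98.7, 104 and 108 TPM with R157K and changed by -0.76 ± 0.08. The groups did not overlap for ISG15, IFIT5 or DTX3L. Antigen presentation genes gave 9 that rose and 2 that fell of 15. HLA-B, a class I gene, had 2494, 1868 and 2842 TPM with WT and 5335, 4112 and 5249 TPM with R157K and changed by 1.39 ± 0.13 (0.55). Class I genes share sequence with each other, and the split of their reads is uncertain. ERAP2, which trims peptides for class I proteins, changed by -1.28 ± 0.12 (-0.61). In the NF-kB and cytokine list 8 rose and 7 fell of 35, with the chemokines CXCL1, CXCL2 and CXCL3 higher by 0.98 ± 0.12, 1.09 ± 0.16 and 1.07 ± 0.14 and the cyclooxygenase PTGS2 lower by 1.19. After trend removal the chemokine changes were 0.81, 0.94 and 0.93. In the lists, 14 were higher and 19 lower of the interferon genes (median -0.04), 10 were higher and 3 lower of antigen presentation and 9 were higher and 6 lower of the NF-kB list after trend removal.

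Immediate early genes gave 12 that rose and 4 that fell of 34. CEBPD, a bZIP factor of acute responses, had 6.47, 4.27 and 6.57 TPM with WT and 25.4, 19.1 and 25.8 TPM with R157K and changed by 2.21 ± 0.15 (0.96 after trend removal), and IER5, a heat-shock regulator, had 22.3, 17.6 and 24.6 TPM with WT and 62.1, 51.5 and 59.7 TPM with R157K and changed by 1.74 ± 0.12 (1.89). KLF10, a TGF-beta-inducible repressor, went the other way, by -0.77 ± 0.10 (-0.45). Antioxidant genes gave 20 that rose and 7 that fell of 44, with a median of 0.70 that went to 0.08 after trend removal. The peroxidases GPX1 and GPX4 rose by 1.47 ± 0.14 and 1.53 ± 0.11 (0.16 and 0.22). GCLM, of glutathione synthesis, and NFE2L2, the factor NRF2 itself, fell by 1.55 and 0.71 (-0.78 and -0.44). p53 targets gave 7 and 9 of 26, and apoptosis genes 4 and 10 of 27, with BBC3, a BH3-only killer, in both lists and higher by 1.60 ± 0.17. Unfolded protein and integrated stress genes gave 6 and 11 of 32. Chaperones gave 5 that rose and 16 that fell of 32. HSPE1, the small mitochondrial chaperonin, changed by 1.18 ± 0.15, and HSPA8, the constitutive HSP70, by -0.56 ± 0.07. After trend removal, 12 were higher and 3 lower of the immediate early genes, 15 were higher and 6 lower of the antioxidant genes and 7 were higher and 18 lower of the chaperones. The p53 targets had 6 higher and 4 lower and the unfolded protein list 9 higher and 4 lower. Their balance thus turned, in a step that took all genes from 17.3% and 30.8% to 20.0% and 22.6%. Of the apoptosis genes 7 were higher and 7 lower, or 4 and 8 without WT replicate 2.

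Membrane traffic, sterol and energy genes were also counted, where over all genes 17.3% rose and 30.8% fell. The all-gene shares after trend removal were 20.0% higher and 22.6% lower. RAB and ARF GTPases gave 5 that rose and 22 that fell of 41, and coats and translocation genes 7 and 19 of 40. Within the Sec61 channel SEC61B and SEC61G, its small subunits, rose by 1.54 ± 0.12 and 1.70 ± 0.16, while SSR1 and SSR3, of the associated TRAP complex, fell by 0.85 and 0.86. Lysosome and autophagy genes gave 7 and 10 of 40. LAMP1 changed by 0.67 ± 0.08 and its relative LAMP2 by -0.94 ± 0.13. Cholesterol genes gave 5 and 15 of 31, with PMVK, a kinase of the mevalonate pathway, higher by 1.33 ± 0.15. Glycolysis and hypoxia genes gave 4 and 11 of 37, and after trend removal 5 and 16. Selenoproteins gave 8 and 5 of 20, and SELENOT, of the endoplasmic reticulum, had 252, 359.5 and 228 TPM with WT and 43.9, 53.9 and 48.9 TPM with R157K and changed by -2.12 ± 0.16 (-1.37). After trend removal, 12 were higher and 15 lower of the GTPases, 10 were higher and 11 lower of the coat list, 6 were higher and 14 lower of the lysosome list, 3 were higher and 15 lower of the cholesterol list and 8 were higher and 2 lower of the selenoproteins. Without WT replicate 2 as well, 3 glycolysis and hypoxia genes were higher. In the cholesterol list, 8 rose without WT replicate 3.

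Some of the largest single changes were in read-through or duplicated genes, whose reads cannot be assigned with certainty. RPL36A-HNRNPH2, a read-through of 2 neighbours, had 209, 15.7 and 183 TPM with WT and 14.5, 7.38 and 3.42 TPM with R157K, a change that was not called without WT replicate 1 or R157K replicate 3, while RPL36A alone rose from 152, 279 and 127 TPM with WT to 378, 527 and 383 TPM with R157K. HSPE1-MOB4 and PEDS1-UBE2V1, also read-through genes, changed by -2.46 ± 0.45 and -2.63 ± 0.41, and RBM14-RBM4 by 3.12 ± 0.42. The copies BOLA2 and BOLA2B changed by 3.33 ± 0.99 and 2.92 ± 0.77. For BOLA2, WT replicate 2 was listed at 0 and the other WT libraries at 20.9 and 47.4 TPM, and its change was not called without R157K replicate 3. Among genes with a single locus, PLEKHA3, which binds phosphoinositides at the Golgi, had 32.8, 34.0 and 33.7 TPM with WT and 3.59, 3.27 and 3.13 TPM with R157K, a change of -2.64 ± 0.15 (-1.87 after trend removal). LRCH3, a leucine-rich repeat protein, had 106, 143 and 118 TPM with WT and 35.1, 17.5 and 18.4 TPM with R157K, and RPAP2, a phosphatase of RNA polymerase II, had 15.5, 25.9 and 12.3 TPM with WT and 2.01, 2.74 and 1.85 TPM with R157K. The naming rule required the R157K libraries to be the lower for each of these 3. NUPR1, a small stress-induced chromatin protein, had 3.52, 1.31 and 3.76 TPM with WT and 16.2, 12.6 and 20.9 TPM with R157K, a change of 2.58 ± 0.26 (2.72).

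Of the genes named above as changed, 16 were not called after trend removal. They are BBC3, BOLA2, BOLA2B, DLX2, GAS1, GPX4, IGFBP4, LAMP2, LTBP3, LTBP4, NDUFAF7, PAPPA, PMVK, PRMT3, PRMT9 and SNRPD1, and all kept their direction.

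R157K was also set directly against R157F, another mutant at the same residue. Between R157K and R157F, 485 of 14718 genes were higher (3.30%) and 568 lower (3.86%) both ways, together 7.15%. For ribosomal proteins the counts were 27 higher and 0 lower of 32 in the small and 29 and 0 of 47 in the large subunit. Complex I gave 24 and 1 of 38, complexes II to V 24 and 0 of 41, and the S100, thymosin and galectin list 12 and 0 of 20. RPS29 had 2148, 1990.0 and 2399 TPM with R157F, and the difference was 1.45 ± 0.22 (limma, adjusted p = 0.00178). MT-ND3 had 2875, 2882 and 3396 TPM with R157F, a difference of 1.60 ± 0.12 (adjusted p = 6.47e-05), while MT-ND4 had 3479.8, 3559 and 3149 TPM, a difference of -0.04 ± 0.11 (adjusted p = 0.889). So MT-ND3 and RPS29 differed between the mutants, and for MT-ND4 the test found no difference it could call. Histones gave 0 and 0 of 22, palate transcription factors 0 and 3 of 40, interferon genes 2 and 2 of 46, and antigen presentation 0 and 0 of 15. On the lower side, chromatin regulators gave 0 and 12 of 56, ubiquitin ligases 0 and 7 of 36, and nuclear transport 0 and 5 of 38. Against R157S, 1162 genes were higher (7.90%) and 2442 lower (16.6%), with 29 and 0 of the small subunit, 29 and 3 of complex I and 0 and 26 of nuclear transport. The comparisons share the R157K libraries and are not independent of each other.

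**Figure D4:**
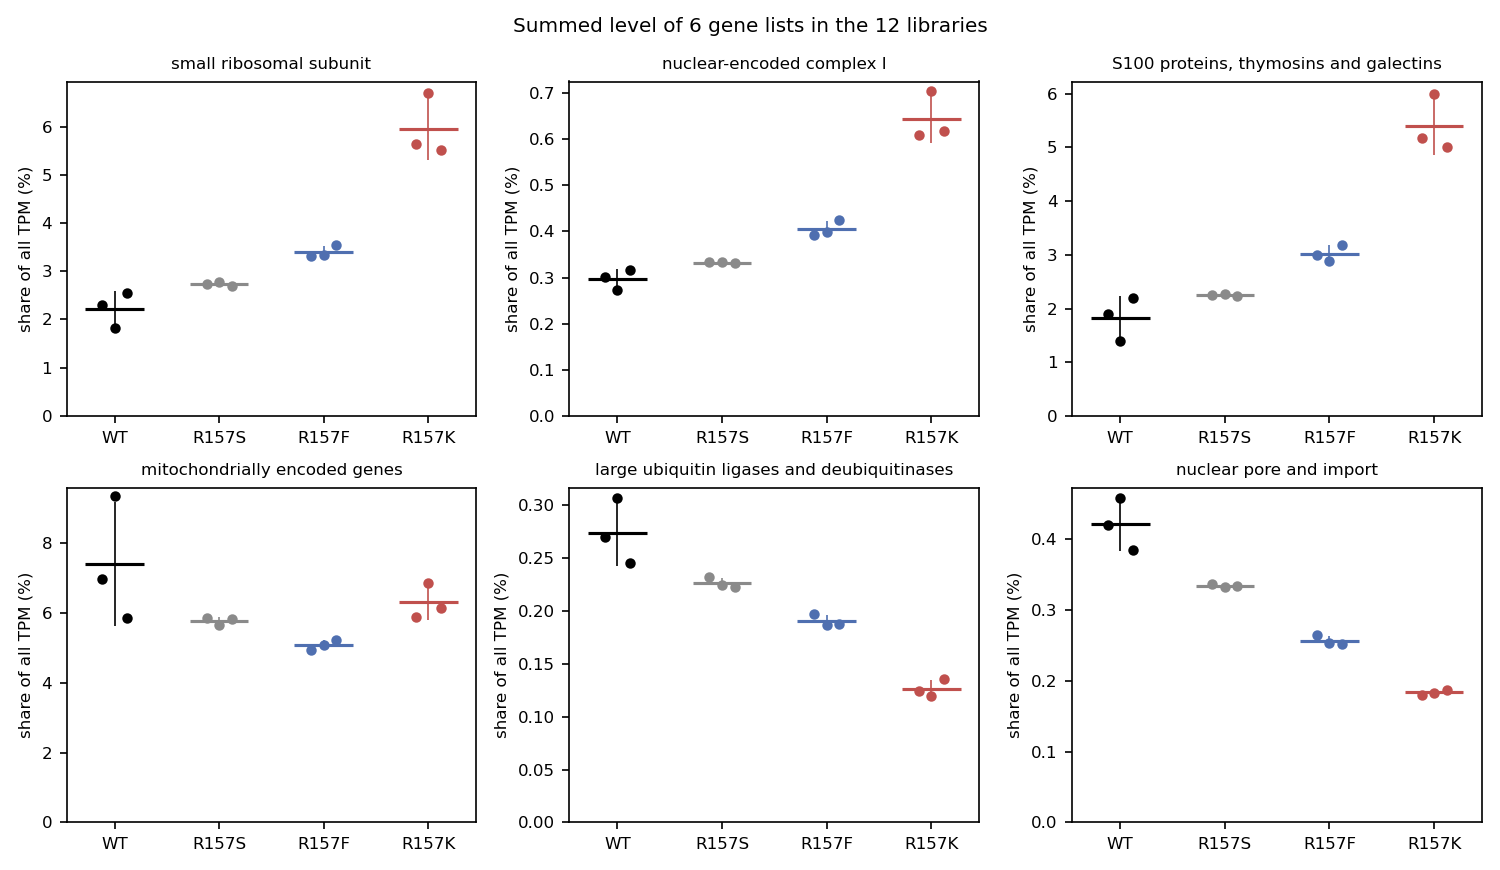
Summed TPM of 6 gene lists as a percentage of all TPM in every library, with the mean (horizontal line) and SD (vertical line) of 3 libraries per plasmid. The R157K libraries are the highest of all 12 for the small ribosomal subunit, complex I and the S100, thymosin and galectin list, the lowest for ubiquitin ligases and nuclear transport, and among the others for mitochondrially encoded genes.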

How the data were processed

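RNA of 12 HEPM libraries, 3 for each of 4 MSX1 plasmids, was taken from 1 table of TPM values that the authors deposited. The submitters' processing notes name RSEM. Aligner, genome build, annotation, strand setting and depth: not given in the sources used here. Libraries were prepared from poly(A) RNA with a stranded kit, per the labels' protocols. Genes with at least 1 TPM in 3 or more of the 12 libraries were kept (14718), and log2(TPM + 1) of all 12 libraries was fitted with limma 3.58.1 in R 4.3.3, with 1 coefficient per plasmid, a moderation that follows mean expression and Benjamini-Hochberg adjustment at 0.05. Fold changes on this scale understate the change of low genes. The fit was repeated with each library centred on its all-gene median, and after splines of 6 degrees of freedom on transcript GC content and log length, from GENCODE 29 on GRCh38 for 14220 genes matched by ID, were removed from each library. The scripts were tested on simulated data. The named genes are MSX1, PRMT1, the 12 higher and 12 lower genes with the largest changes before and after trend removal, and list members. The largest changes were taken among protein-coding genes with a symbol, called both ways and without overlap between the 3 R157K and 3 WT libraries. Their mean had to be at least 2 TPM for the first set and 5 TPM for the second, which also had to be called after trend removal. Per list, up to 3 higher and 3 lower members called both ways were taken, ranked by adjusted p. RPL4, RPL32, RPL41, RPS6, RPL36A, PRRX2 and VIM fall outside this rule and were chosen after their values were seen. The members and gene lists were chosen with earlier results of these data known. Whether replicates are separate cultures is not stated, and p-values therefore cover the spread among these samples alone, which may be technical. The labels give each replicate number as a batch, which pairs the libraries. Deviations of same-numbered WT and R157K libraries correlated at 0.14, 0.39 and 0.09, and those of differently numbered ones at -0.35 to 0.32. Alternatives were another pseudocount, filter, scaling, moderation or set of libraries, the replicate block, a minimum change and each library left out.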

Additional observations from a re-analysis of the deposited data

How the results depend on the processing

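Leaving out each of the 6 libraries in turn gave 8521 to 9525 genes called against no change, 6036 to 7545 called both ways, 2070 to 2854 higher and 3966 to 4704 lower. Against no change MSX1 then ranged from 0.31 to 0.84, and was called without R157K replicate 2 (0.84), while PRMT1, at 0.88 with all libraries, ranged from 0.65 to 1.01 and was called each time. With a minimum change of 1 on the log2 scale 3586 genes were called against no change and 1773 both ways, 852 higher and 921 lower. Median-ratio scaling raised the genes higher both ways to 4539, brought the share of higher calls against no change from 27.3% to 50.4%, and called MSX1 at 0.99. With trends removed 6051 genes were called, with trends removed and the replicate block 5922, and 2 further settings were chosen after seeing the data: trends removed without WT replicate 2 gave 5378 with 2879 lower, and a coding length trend gave 5491 with 2849 lower. The causes of these shifts were not tested. The replicate block called MSX1 at 0.58 and changed the call of none of the other named genes. With the coding length trend taken out as well, 23 of 144 other named genes lost their call, against 16 of 146 with GC and length alone. With only the R157K and WT libraries fitted, 3 of 146 lost it. Among 146 other named genes none of those called changed direction under the settings run, while RPL4, RPS6, VIM and MT-ND4L, which were not called, changed sign under at least 1. Without 1 library, LIG1, LTBP3, BOLA2 and RPL36A-HNRNPH2 each lost their call at least once: LIG1 without WT replicate 2, R157K replicate 1 or R157K replicate 3, LTBP3 without R157K replicate 1 or 3, BOLA2 without R157K replicate 3, and RPL36A-HNRNPH2 without WT replicate 1 or R157K replicate 3. Depth is unknown, so low values carry no counting error here, and 3 libraries a group limit every estimate.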
